A study of Mus musculus with 6 samples.

Results

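Interferon-stimulated genes were examined in demyelinated brain lesions of transgenic mice built for the ablation of astrocytes and of wild type mice. The members were 9 named genes: Ifit1, Ifit3, Irf7, Oasl2, Usp18, Ifi44, Rsad2, Bst2 and Ifitm3. A gene was read from a probe set annotated with exactly 1 gene symbol, and from the brightest one where there were several. Of the 9 genes, 8 had such a probe set, each exactly 1, among 22180 genes with one on the array. Ifi44 is not analysed here.

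The series held 6 Affymetrix arrays, 1 for each macrodissected lesion, with 3 transgenic and 3 wild type lesions. The transgenic mice carried a construct that allows non-proliferative GFAP+ astrocytes to be eliminated by apoptosis. GFAP is the intermediate filament of astrocytes. Mice of both genotypes were 5 to 6 weeks old, received a brain lesion with LPC, a lipid that strips myelin, and CID, the compound that triggers the ablation, 48 hours later. Tissue was taken on day 7 after LPC, so the wild type mice had the lesion and CID as well. Nothing in the labels says whether each lesion is from its own animal, and p-values therefore cover the spread of these samples, which may be partly technical. Levels are given as the log2 of the authors' RMA intensities. Every difference is the transgenic minus the wild type mean.

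Type I interferons act through the receptor chains Ifnar1 and Ifnar2 and the kinases Jak1 and Tyk2. These activate a complex with Stat2 and Irf9 that binds a DNA sequence called the interferon-stimulated response element, or ISRE. The genes so induced include antiviral effectors and regulators that extend or limit the response. In the brain, microglia, astrocytes, endothelial cells and infiltrating leukocytes can all raise these genes, so in whole-lesion RNA the source cell cannot be read from the level.

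The promoters with the core of the ISRE are shown because this sequence is a feature of the members outside the measured values, one that only some of them held. RefSeq promoter sequences of assembly GRCm38.p6, 250 bases before to 50 bases after the start of the gene, were matched by symbol for 8 of the 9 members. Usp18 is named only. The core GAAANNGAAA was searched on both strands, where its reverse complement reads TTTCNNTTTC. It was found in 5 of the 8 member promoters (62.5%), in 17 of 40 promoters of other type I interferon-stimulated genes (42.5%) and in 1079 of all 27025 genes with a promoter (3.99%), counting a gene with several windows if any held it. The 5 promoters with a match are printed 5′ to 3′ on the strand of the gene, with the matches in capitals. Ifit1 lies at chr19:34640639-34640938 on the plus strand, Ifit3 at chr19:34583279-34583578 on the plus strand, Rsad2 at chr12:26456403-26456702 on the minus strand, Bst2 at chr8:71537423-71537722 on the minus strand and Ifitm3 at chr7:141010695-141010994 on the minus strand.
Ifit1: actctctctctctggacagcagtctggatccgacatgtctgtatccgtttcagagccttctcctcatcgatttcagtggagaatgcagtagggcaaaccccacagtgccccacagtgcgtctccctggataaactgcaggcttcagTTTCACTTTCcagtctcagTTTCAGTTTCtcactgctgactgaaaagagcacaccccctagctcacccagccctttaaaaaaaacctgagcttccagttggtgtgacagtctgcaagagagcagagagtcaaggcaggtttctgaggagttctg
Ifit3: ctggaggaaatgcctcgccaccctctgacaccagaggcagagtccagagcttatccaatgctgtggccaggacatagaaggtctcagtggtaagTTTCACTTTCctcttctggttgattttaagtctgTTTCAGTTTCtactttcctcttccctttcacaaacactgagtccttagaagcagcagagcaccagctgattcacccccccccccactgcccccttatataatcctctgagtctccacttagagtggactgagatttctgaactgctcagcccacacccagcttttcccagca
Rsad2: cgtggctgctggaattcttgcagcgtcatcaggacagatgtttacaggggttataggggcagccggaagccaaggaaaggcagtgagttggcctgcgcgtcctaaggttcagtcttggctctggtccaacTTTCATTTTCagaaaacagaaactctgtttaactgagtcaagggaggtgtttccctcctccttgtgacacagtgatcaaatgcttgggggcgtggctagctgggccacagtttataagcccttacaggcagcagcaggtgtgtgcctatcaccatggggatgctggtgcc
Bst2: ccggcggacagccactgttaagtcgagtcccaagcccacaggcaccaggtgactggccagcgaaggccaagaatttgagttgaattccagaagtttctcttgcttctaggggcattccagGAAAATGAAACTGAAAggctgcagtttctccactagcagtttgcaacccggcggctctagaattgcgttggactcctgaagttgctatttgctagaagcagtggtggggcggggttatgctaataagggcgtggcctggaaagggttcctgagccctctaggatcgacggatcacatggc
Ifitm3: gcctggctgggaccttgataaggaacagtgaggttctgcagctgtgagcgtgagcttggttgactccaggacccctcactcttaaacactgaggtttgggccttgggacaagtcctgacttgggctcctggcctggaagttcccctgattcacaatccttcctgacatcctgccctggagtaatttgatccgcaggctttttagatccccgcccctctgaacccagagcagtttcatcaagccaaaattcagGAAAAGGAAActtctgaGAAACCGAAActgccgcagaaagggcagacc

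Ifit1 and Ifit3, which are both on chromosome 19, each held a TTTCACTTTC and a TTTCAGTTTC. In Ifit1 these began 104 and 85 bases before the start of the gene, and in Ifit3 156 and 122 bases before it. Bst2 held 2 matches that overlapped each other, GAAAATGAAA and GAAACTGAAA. Rsad2 held 1 match, and the 2 matches of Ifitm3 lay after the start. These letters were not found in the windows of Irf7, Oasl2 and Ifi44. A match is a description of the sequence and says nothing about whether a factor bound there.

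The arrays carried brain tissue by their markers, with list means of 9.06 for neurons, 8.36 for astrocytes and 9.23 for myelin and oligodendrocytes over the 6 arrays. The astrocyte markers were not lower on every transgenic array, with list means of 7.95, 8.51 and 8.40 on transgenic replicates 1, 2 and 3 and 8.39 to 8.48 in wild type lesions. Gfap stood at 8.91, 8.82 and 9.24 in transgenic and at 9.83, 9.18 and 9.09 in wild type lesions, so the groups overlapped. The groups are therefore called by their genotype, and a loss of astrocytes is not taken as given. Sex-linked transcripts showed a male pattern on transgenic replicates 1 and 3 and a female pattern on transgenic replicate 2 and on the 3 wild type arrays. Xist stood at 4.67, 9.14 and 4.42 on the transgenic arrays and at 9.49, 9.30 and 9.30 on the wild type arrays. Striatal genes were high on wild type replicates 2 and 3, with list means of 8.16 and 8.79, and the other 4 arrays ranged from 5.99 to 6.53. The array median was 5.34 on transgenic replicate 2 and 5.52 to 5.59 on the other arrays.

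Transgenic lesions were set against wild type lesions to ask whether the interferon response differed where astrocytes were targeted for ablation. No member passed the adjusted threshold. The transgenic arrays of a member ranged over 0.52 (Bst2) to 1.47 (Ifit3), and the wild type arrays over 0.08 (Oasl2) to 0.57 (Bst2). For 5 of the 8 members transgenic replicate 1 was the highest and transgenic replicate 2 the lowest of all 6 arrays. The same order was found for 9.84% of all genes.

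**Figure D1:**
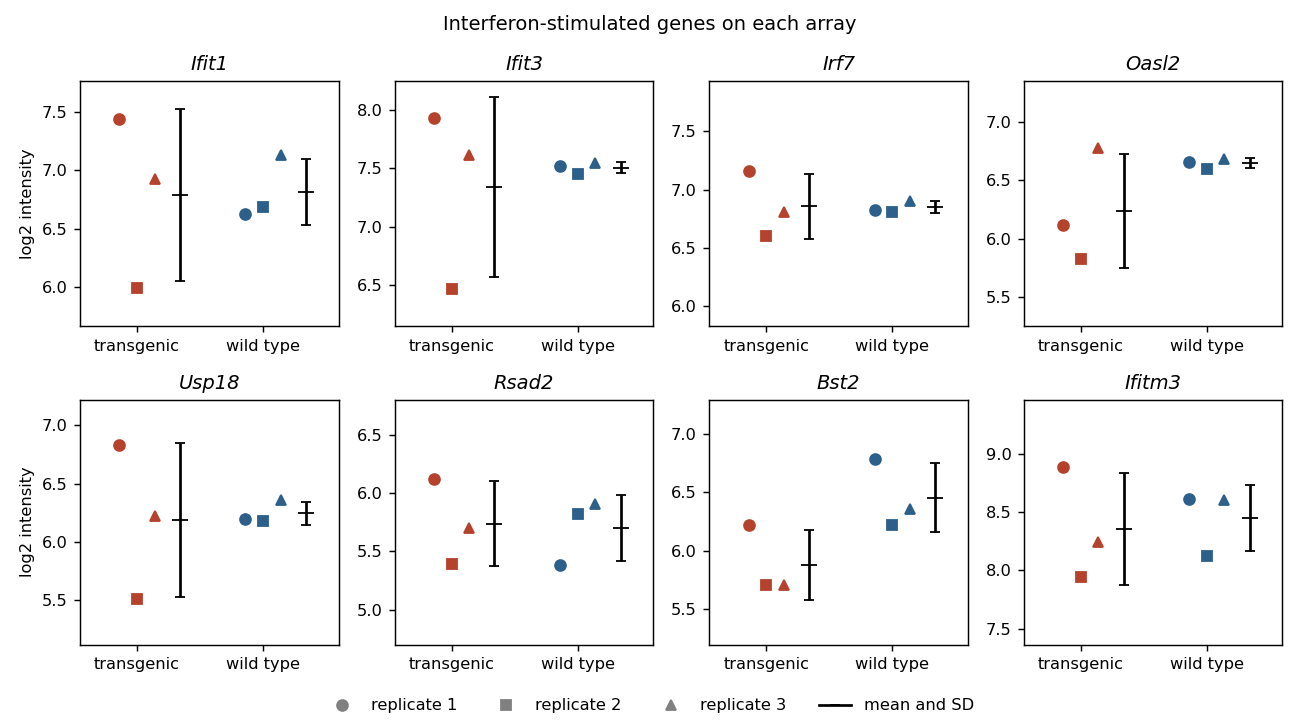
Log2 intensity (vertical axis) of the 8 measured interferon-stimulated genes in transgenic (left, red) and wild type (right, blue) lesions, with 1 point per array, the replicate shown by its symbol, and the mean and SD in black. Every panel spans the same range of the log2 scale, and Ifit3 ranges over 1.47 among transgenic arrays and over 0.09 among wild type arrays.

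Among the antiviral effectors, Ifit1, which binds foreign RNA, stood at 7.44, 5.99 and 6.93 on transgenic replicates 1, 2 and 3, and at 6.62, 6.68 and 7.13 on wild type replicates 1, 2 and 3. The wild type values lay inside the transgenic range. The mean was 6.79 ± 0.74 in transgenic and 6.81 ± 0.28 in wild type lesions (SD, n = 3 each). The difference was -0.03 (SE 0.36, 95% confidence interval -0.87 to 0.81), with a limma adjusted p of 0.99.

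Ifit3, of the same protein family, stood at 7.93, 6.46 and 7.61 in transgenic lesions and at 7.52, 7.45 and 7.54 in wild type lesions. Transgenic replicate 2 lay 1.99-fold below the lowest wild type array, while transgenic replicates 1 and 3 lay above all wild type arrays. The difference was -0.17 (SE 0.35, interval -0.998 to 0.66), with a limma adjusted p of 0.923. Mouse Ifit3 has a near-identical neighbour, Ifit3b, with which it may share probes, so its value is uncertain. Ifit3b itself, read from its own probe set, stood at 5.14, 4.38 and 4.79 in transgenic and at 4.83, 5.09 and 5.20 in wild type lesions.

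Rsad2, or viperin, a radical SAM enzyme that stops viral RNA synthesis, was the dimmest member, at 6.12, 5.39 and 5.70 in transgenic lesions and 5.38, 5.82 and 5.90 in wild type lesions. Here the lowest array was wild type replicate 1, and the groups overlapped throughout. The difference was 0.04 (SE 0.23, interval -0.51 to 0.58). Ifitm3, which blocks virus entry at membranes, was the brightest member, at 8.89, 7.94 and 8.24 in transgenic and 8.61, 8.12 and 8.61 in wild type lesions. Its difference was -0.09 (SE 0.27, interval -0.72 to 0.54), and again the transgenic arrays enclosed the wild type ones.

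Oasl2, a relative of the RNA-sensing oligoadenylate synthetases, followed another order. It stood at 6.11, 5.82 and 6.78 in transgenic lesions, against 6.66, 6.60 and 6.68 in wild type lesions. Transgenic replicates 1 and 2 both lay below the wild type arrays and transgenic replicate 3 above them. The mean was 6.24 ± 0.49 in transgenic and 6.65 ± 0.04 in wild type lesions (SD, n = 3 each), a difference of -0.41 (SE 0.24, interval -0.98 to 0.17) with a limma adjusted p of 0.685.

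Bst2, or tetherin, which holds budding virus at the cell surface, had the lowest p of the members. It stood at 6.22, 5.70 and 5.70 in transgenic lesions and at 6.79, 6.22 and 6.36 in wild type lesions. The groups did not overlap, but the highest transgenic and the lowest wild type array were only 0.00017 apart on the log2 scale. The mean was 5.88 ± 0.30 in transgenic and 6.45 ± 0.30 in wild type lesions (SD, n = 3 each), 1.49-fold lower in transgenic lesions. The difference of -0.58 (SE 0.22, interval -1.09 to -0.06) had an unadjusted p of 0.0322 and an adjusted p of 0.524 in limma. Bst2 was highest on wild type replicate 1, the array with the highest microglia markers (list mean 8.78, against 7.48 and 7.51 on the other wild type and 7.48 to 7.70 on the transgenic arrays), whose part in the result was not tested. Without that array the difference was -0.41 with an unadjusted p of 0.114 in limma. The unadjusted p also exceeded 0.05 without wild type replicate 3 (0.0545), without transgenic replicate 2 (0.0773) or 3 (0.1005), and without moderation of variances (0.0754).

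The regulators of the response differed little in their means. Irf7, the transcription factor that amplifies interferon production, stood at 7.16, 6.60 and 6.81 in transgenic lesions and at 6.83, 6.81 and 6.91 in wild type lesions. Its difference was 0.01 (SE 0.18, interval -0.40 to 0.42). Usp18, the protease that removes the modifier Isg15 and dampens signalling at the receptor, stood at 6.83, 5.51 and 6.22 in transgenic and 6.20, 6.18 and 6.36 in wild type lesions. The difference was -0.06 (SE 0.31, interval -0.79 to 0.67), with the wild type arrays inside the transgenic range. The adjusted p in limma was 0.994 for Irf7 and 0.975 for Usp18.

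**Figure D2:**
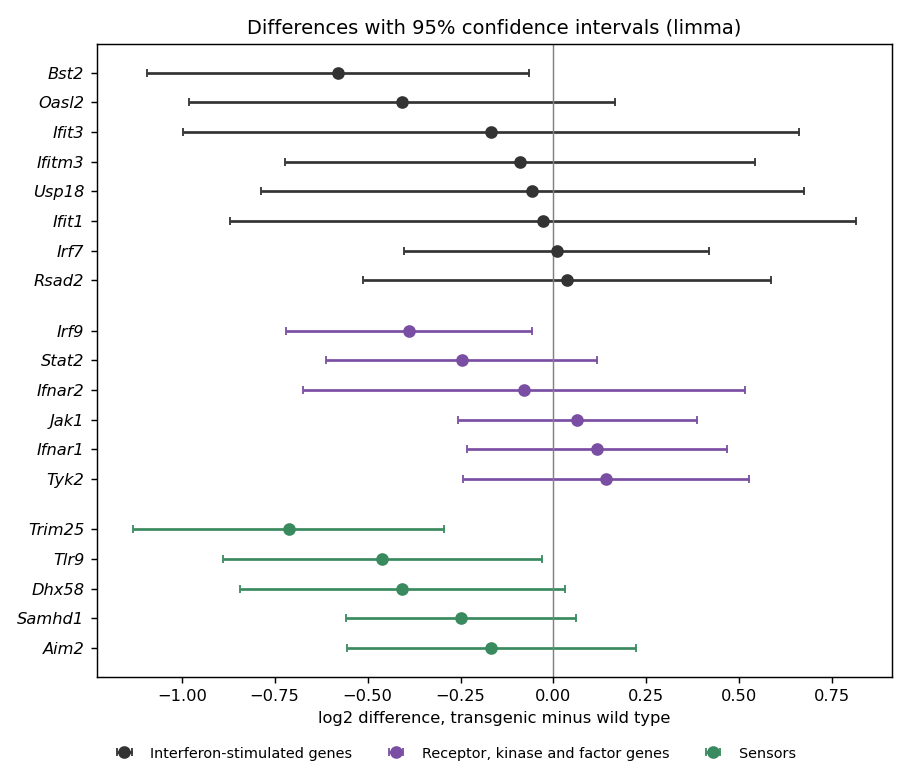
Log2 differences, transgenic minus wild type (horizontal axis), with 95% confidence intervals from limma, for the 8 members (black), 6 receptor, kinase and factor genes (purple) and the 5 sensor genes with the lowest p (green), 3 arrays per group. The intervals of 7 members include 0, and that of Bst2 runs from -1.09 to -0.06 before any adjustment.

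Of the 8 members, 6 had lower and 2 higher transgenic means. Their median difference was -0.07, where the median of all 22180 genes was -0.01 and 51.3% were lower. At the adjusted threshold of 0.05 limma called 0 of the 8 members and 0 of all 41345 probe sets (0%), and the test without moderation of variances also called 0. At an unadjusted p under 0.05, 1 of the 8 members (12.5%) passed, where 8.87% of all probe sets did. That member was lower, where 4.05% of all probe sets passed as lower and 4.82% as higher. The groups did not overlap for 1 member, again lower, where this held for 16.1% of all probe sets, 7.6% lower and 8.54% higher. Both shares rest on Bst2 and stand near the background. The intervals of Ifit1, Ifit3 and Usp18 reached beyond 0.65 in both directions, so differences of that size were not detectable with 3 arrays per group.

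All 8 members had a larger SD among transgenic than among wild type arrays, and 72.7% of all genes did. After quantile normalization this no longer held for Rsad2 (0.28 in transgenic, 0.30 in wild type) and Bst2 (0.26 and 0.30), and it still held for the other members. The median SD of a member was 0.49 in transgenic and 0.19 in wild type lesions, and over all genes 0.23 and 0.13. Across the 6 arrays the members varied together to different degrees. Of 28 pairs of members, the Pearson correlation was between 0.02 for Rsad2 with Bst2 and 0.98 for Irf7 with Usp18, with a median of 0.67. Ifit1, Ifit3, Irf7, Usp18 and Ifitm3 correlated at 0.78 or more with each other, and Oasl2 at 0.57 or less with every other member. These correlations describe 6 arrays. Transgenic replicates 1 and 2 were the highest and the lowest array for 5 of the 8 members. How far the correlations rest on these 2 arrays was not tested.

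The gap between transgenic replicates 1 and 2 was set beside that of genes of similar brightness, a comparison chosen after seeing the data. All 8 members were higher on transgenic replicate 1, by 1.47 for Ifit3, 1.45 for Ifit1, 1.32 for Usp18, 0.94 for Ifitm3, 0.73 for Rsad2, 0.55 for Irf7, 0.52 for Bst2 and 0.29 for Oasl2. In fold terms the values were 2.77 for Ifit3, 2.73 for Ifit1 and 2.49 for Usp18. The 22180 genes were split by mean level into 4 groups of 5545, from group 1, the dimmest, to group 4, the brightest. The median gap was 0.18 in group 1, 0.21 in group 2, -0.16 in group 3 and -0.39 in group 4. Rsad2 lay in group 2, Ifit3 and Ifitm3 in group 4 and the other 5 members in group 3. In groups 3 and 4 most genes thus ran the other way, and 11.2% and 4.56% of them had a gap above 0.5. After quantile normalization the members' gaps were 0.14 for Oasl2 to 1.54 for Ifit3, with a median of 0.87, and the median over all genes was -0.10. The gap compares 2 single lesions and carries no test.

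**Figure D3:**
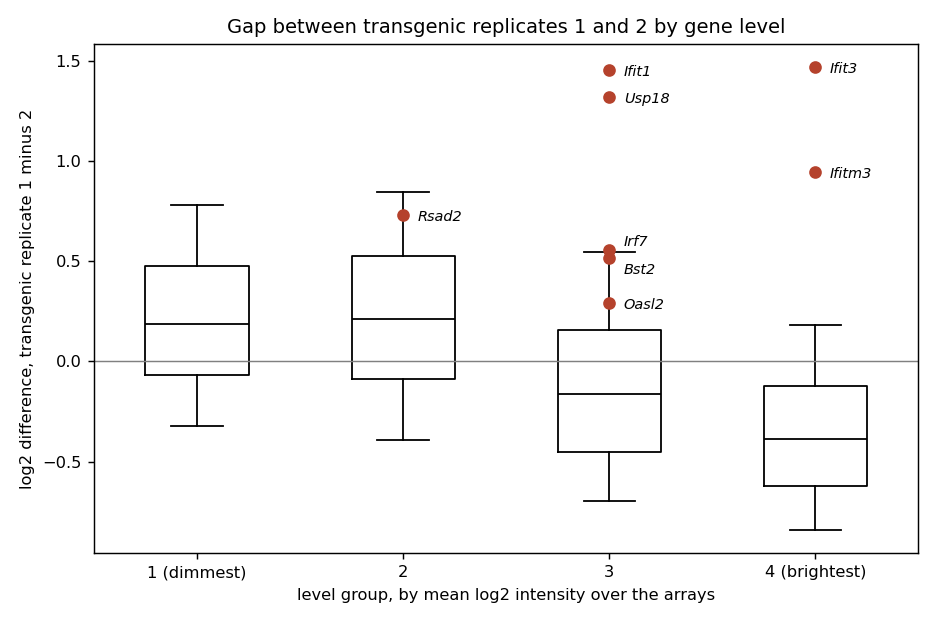
Log2 difference between transgenic replicates 1 and 2 (vertical axis) for genes in 4 level groups of 5545 by mean log2 intensity over the 6 arrays (horizontal axis). Boxes run from the 25th to the 75th percentile with the median as a line, whiskers from the 10th to the 90th, and red points are the 8 members. Ifit1, Usp18, Ifit3 and Ifitm3 lie above the whiskers of their groups and Irf7 just above.

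The genes outside the interferon lists whose values followed the mean of the members most closely over the 6 arrays were Olfr1497 (Pearson r 0.996), Olfr1333 (0.996), Acat3 (0.995), Tbx19 (0.993), Obox1 (0.993) and Olfr1057 (0.991), among 5282 genes with an SD of at least 0.3. In this order their mean levels were 5.53, 6.88, 5.95, 5.35, 6.01 and 4.47, where the members ran from 5.72 to 8.40. Picked by this likeness, all were higher on transgenic replicate 1 than on 2. Obox1 stood at 6.90 and 4.17, Olfr1333 at 7.65 and 5.63 and Acat3 at 6.51 and 5.10. Olfactory receptor genes are known for expression in the nose and belong to a large family whose copies can share probes. Of 1105 such genes on the array, which had a median level of 3.60, 72.5% were higher on transgenic replicate 1 than on transgenic replicate 2. That share was 69.1% of all genes in group 1 and 68.7% in group 2. The median gap of the olfactory receptor genes was 0.25. After quantile normalization that gap was 0.15, and the median gap was 0.03 in group 1 and -0.04 in group 2. In groups 3 and 4 it was -0.17 and -0.20, against -0.16 and -0.39 before quantile normalization. The median gap of the members was 0.84 before and 0.87 after it. The gap fell for Usp18 (1.32 to 1.22), Rsad2 (0.73 to 0.53), Bst2 (0.52 to 0.36) and Oasl2 (0.29 to 0.14) and did not fall for the other members. No detection calls were at hand. Whether the order has the same origin in the members, in the genes most like them and in dim probe sets was not tested.

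Other genes induced by type I interferon also mostly had lower transgenic means, more often than genes in general. Of 50 measured genes of 56 listed, 40 had lower and 10 higher transgenic means (80% lower, where 51.3% of all genes were). The median difference was -0.20, against -0.01 over all genes. At the adjusted threshold 0 passed in limma, and at an unadjusted p under 0.05, 2 did (4%), both lower, below the 8.87% of all probe sets. These were Trim25, a ubiquitin ligase that activates the RNA sensor RIG-I, and Irf9. The groups did not overlap for 10 of the 50 (20%, where 16.1% of all probe sets did not). Of these 9 were lower (18%, where 7.6% of all probe sets were) and 1 higher. Transgenic replicate 2 was the lowest array for 29 of the 50 (58%), and for 25.4% of all genes. Without transgenic replicate 2, 29 of the 50 had lower means.

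Trim25 stood at 5.80, 5.82 and 5.37 in transgenic lesions, against 6.55, 6.31 and 6.27 in wild type lesions. Its difference was -0.71 (SE 0.18), with a limma adjusted p of 0.409, with no overlap of the groups. Of the other genes in this list with the lowest p, Oas1g differed by -0.79 (SE 0.36), Dhx58, a relative of the RNA sensors, by -0.41 (SE 0.19) and Uba7, the enzyme that activates Isg15, by -0.36 (SE 0.18). Oas1g belongs to a cluster of near-identical genes and its value is uncertain. Isg15, named here after its values were seen, stood at 5.50, 4.54 and 5.33 in transgenic and 5.54, 5.24 and 5.97 in wild type lesions.

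The groups overlapped for the receptor chains Ifnar1 and Ifnar2 and the kinases Jak1 and Tyk2. Ifnar1 stood at 7.87, 8.15 and 7.84 in transgenic and 7.90, 7.83 and 7.76 in wild type lesions, a difference of 0.12 (SE 0.15). Ifnar2 differed by -0.08 (SE 0.25), Jak1 by 0.06 (SE 0.14) and Tyk2 by 0.14 (SE 0.16). Irf9, the DNA-binding part of the Stat complex, stood at 5.70, 5.94 and 5.93 in transgenic lesions, below 6.27, 6.28 and 6.18 in wild type lesions. The difference of -0.39 (SE 0.14) had an unadjusted p of 0.0271 and an adjusted p of 0.514 in limma. Stat2, its partner, was lower on every transgenic array, at 6.68, 6.60 and 6.74, against 7.15, 6.79 and 6.81 in wild type lesions, and differed by -0.25 (SE 0.16, adjusted p 0.70 in limma). Of 17 measured receptor and JAK-STAT genes, 10 had higher and 7 lower means with a median of 0.02. The groups did not overlap for 3 of the 17 (17.6%, where 16.1% of all probe sets did not). All 3 were lower, where this held for 7.6% of all probe sets. The kinase Jak2 was lower on every transgenic array, at 7.15, 7.80 and 7.75, against 8.02, 7.83 and 7.95 in wild type lesions, and differed by -0.36 (SE 0.20, adjusted p 0.658 in limma). Pias1, an inhibitor of Stat proteins, differed by 0.26, and Ifngr1, a chain of the interferon gamma receptor, by -0.38.

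Among 18 measured nucleic acid sensors and adaptors, 10 had lower and 8 higher means, and 2 (11.1%) had an unadjusted p under 0.05, near the 8.87% of all probe sets. Besides Trim25 this was Tlr9, the receptor for unmethylated DNA, at 7.05, 6.69 and 7.05 in transgenic and 7.65, 7.23 and 7.28 in wild type lesions. Its difference was -0.46 (SE 0.18), with a limma adjusted p of 0.54. Samhd1, which degrades nucleotides, differed by -0.25 and Aim2, a DNA sensor, by -0.17. Of the 7 measured interferon regulatory factors Irf9 alone had an unadjusted p under 0.05 (14.3%, where 8.87% of all probe sets did). Irf4 differed by 0.22, Irf8, a factor of microglia and other myeloid cells, by -0.29, Irf2 by -0.08 and Irf1 by -0.05.

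Genes induced mainly by interferon gamma went both ways, with 13 lower and 6 higher of 19 measured and a median of -0.15. Irgm1, a GTPase of the defence against intracellular microbes, stood at 5.83, 5.65 and 5.84 in transgenic lesions, above 5.44, 5.19 and 5.46 in wild type lesions. Psmb10, a subunit of the immunoproteasome, stood at 8.68, 8.32 and 8.16 in transgenic lesions, above 7.81, 7.86 and 8.02 in wild type lesions. The differences were 0.41 (SE 0.15) and 0.49 (SE 0.18), each with a limma adjusted p of 0.514. Irgm2 differed by -0.39, with every transgenic array below the wild type arrays. The chemokine Cxcl9 differed by -0.42 and Ciita, which drives genes of MHC class II, by -0.23. The groups did not overlap for 5 of the 19 (26.3%, where 16.1% of all probe sets did not), 2 higher and 3 lower.

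The interferons themselves had 11 lower and 2 higher means of 13 measured genes (84.6% lower, where 51.3% of all genes were). Ifnl2 differed by -0.42 (SE 0.17), Ifna1 by -0.45, Ifna14 by -0.30, Ifna4 by -0.44 and Ifna2 by -0.31. Of the 13 genes Ifnl2 alone had an unadjusted p under 0.05, at 0.0433 (adjusted p 0.552 in limma). This is 7.69% of the list, where 8.87% of all probe sets passed. Near-identical copies of the Ifna genes can share probes, and without detection calls these levels cannot be read as expression. Ifnb1, the type I interferon of most tissue cells, stood at 3.69, 3.66 and 3.39 in transgenic and 3.17, 3.65 and 3.35 in wild type lesions, all far below the array medians.

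**Figure D4:**
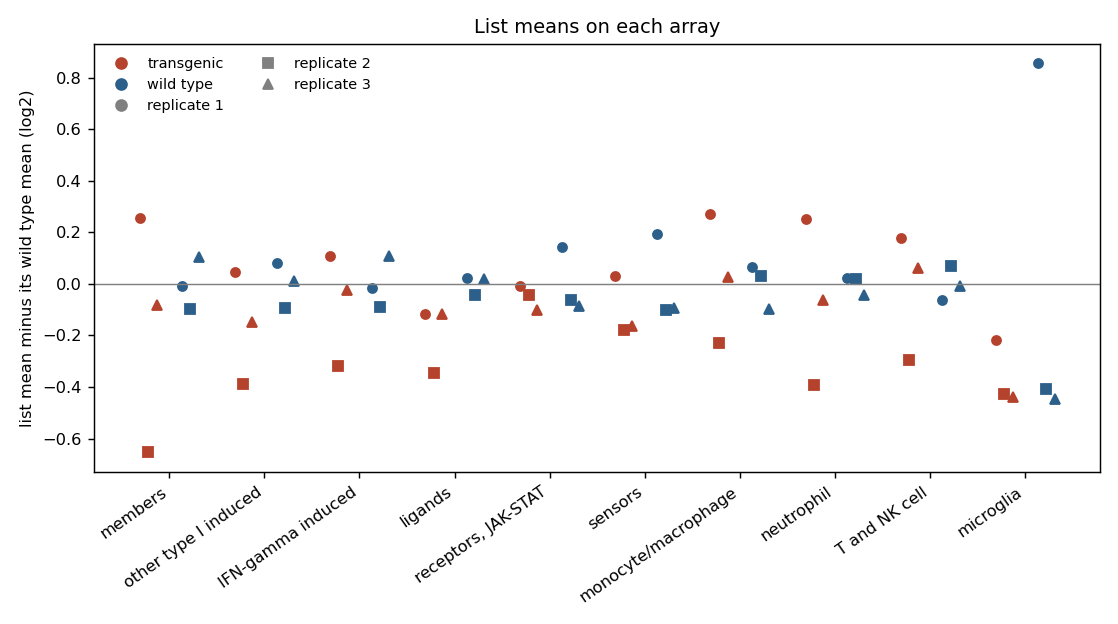
Mean log2 intensity of each gene list on each array minus the list's mean over the 3 wild type arrays (vertical axis), for 6 interferon lists and 4 marker lists (horizontal axis). Transgenic arrays are red and left, wild type arrays blue and right, and symbols give the replicate. The member mean ran from 6.18 on transgenic replicate 2 to 7.09 on transgenic replicate 1 and from 6.74 to 6.94 on the wild type arrays.

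Of 4 lists of blood-derived cells, 3 had their highest mean on transgenic replicate 1 and their lowest on transgenic replicate 2, as the mean of the members had. The means over dim genes had this order too, though most single dim genes did not. The means of all genes in level groups 1 and 2 were highest on transgenic replicate 1 (4.03 and 5.42) and lowest on transgenic replicate 2 (3.82 and 5.20). Transgenic replicate 1 was the highest array for 34% and 31% of the genes in these groups. Transgenic replicate 2 was the lowest for 35.3% and 43%. The neutrophil list mean was 4.75, 4.11 and 4.44 on transgenic replicates 1, 2 and 3 and 4.46 to 4.52 in wild type lesions, and none of its 10 genes was brighter than the median probe set. Its defining genes S100a8 and S100a9 had means of 4.44 and 4.77 over the arrays. The T and NK cell list mean was 5.02, 4.55 and 4.90 in transgenic and 4.78 to 4.91 in wild type lesions, with 1 of 11 genes brighter than the median probe set. The monocyte and macrophage list ran from 4.92 to 5.42 in transgenic and 5.06 to 5.22 in wild type lesions, with 3 of 12 genes brighter than the median probe set. The summed intensities of these lists ranged from 186 to 309, 296 to 397 and 387 to 578 in transgenic lesions and from 248 to 256, 338 to 364 and 431 to 473 in wild type lesions. The plasmacytoid dendritic cell list, of cells known for making type I interferon, was instead highest on wild type replicate 1 and lowest on wild type replicate 3, at 6.50, 6.38 and 6.44 in transgenic and 6.60, 6.38 and 6.34 in wild type lesions. Its summed intensity ranged from 1097 to 1350 in transgenic and from 1124 to 1408 in wild type lesions, with 7 of 9 genes brighter than the median probe set. The list is not specific to these cells. It holds Bst2, itself a member, Siglech, which is also in the microglia list, and Irf8, a factor of microglia too. The part of these cells in the members' order was not tested. Fewer cells of a type and less RNA per cell cannot be told apart in these lesions.

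The phagocyte list, with Cd68, Tyrobp, Ctsb and Cd9 as its brightest genes, stood at 8.57, 7.38 and 7.24 in transgenic and 8.83, 8.19 and 7.53 in wild type lesions. The mean of the members was 7.09, 6.18 and 6.75 in transgenic and 6.83, 6.74 and 6.94 in wild type lesions. The part of phagocytes in the members' order was not tested. The astrocyte list was lowest on transgenic replicate 1, at 7.95, against 8.51 and 8.40 on transgenic replicates 2 and 3 and 8.39 to 8.48 in wild type lesions. The myelin list was lower on all transgenic arrays, at 8.55 to 8.98, than on the wild type arrays, at 9.52 to 9.95. The endothelial list, whose cells also raise interferon-stimulated genes, ranged from 5.71 to 6.13 in transgenic and from 5.85 to 6.01 in wild type lesions.

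Within 1 sex the groups could be compared only on female arrays, which left transgenic replicate 2 against the 3 wild type arrays, since both arrays of male pattern were transgenic. In that subset all 8 members were lower in the transgenic lesion, with a median difference of -0.74. Ifit3 differed by -1.04, Oasl2 by -0.82 and Ifit1 by -0.82. That array was the lowest of all 6 for 6 of the 8 members (75%, where it was for 25.4% of all genes), so these are values of 1 lesion, with no test. The spread of the wild type arrays cannot stand for it, since the SD of Ifit3 was 0.77 in transgenic and 0.05 in wild type lesions. Without transgenic replicate 2 the sign turned for Ifit1 (0.37), Ifit3 (0.27), Usp18 (0.28) and Ifitm3 (0.12). Transgenic replicate 3, also of male pattern, lay within 0.21 of the wild type mean for 7 of the 8 members, and 0.75 below it for Bst2. Sex and the identity of the lesion cannot be told apart here.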

How the data were processed

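Total RNA of 6 mouse brain lesions was hybridised to Affymetrix arrays, 1 per lesion. Per the submitters' processing notes, the authors made the deposited intensity values by RMA in Affymetrix Expression Console. Not given in the sources used here: versions, genome build and detection calls. The intensities were on a linear scale and were turned to log2 with no pseudocount. Of 41345 probe sets, 23521 had 1 gene symbol, 1814 several and 16010 none in the platform annotation. Groups and replicate numbers came from the titles.

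All probe sets were fitted with limma (version 3.58.1, R 4.3.3), by lmFit and eBayes on 6 arrays without covariates, two-sided, with Benjamini-Hochberg adjustment at a threshold of 0.05. The step was tested on simulated data. The number of arrays limits the precision, with a median SE of 0.19. The members and lists were chosen with earlier results of these data known. Named were all members, the 5 genes of each pathway list with the lowest p, a fixed set of signalling genes (1 is not reported here), the 6 genes most correlated with the members and up to 4 bright markers per cell list. Alternatives covered normalization, a filter on dim probe sets, array weights, the variance model, the replicate number, single arrays and sex. Same-numbered arrays did not deviate together over all probe sets (correlations of 0.01, -0.10 and -0.07), and the main fit left the lesions unpaired. Such correlations cannot exclude that lesions were handled in pairs.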

Additional observations from a re-analysis of the deposited data

How the results depend on the processing

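Bst2 kept its direction under all 15 alternatives, at -0.75 to -0.41, and passed the adjusted threshold under array weights alone (-0.70, adjusted p 0.0345, smallest of the 15), a fit in which transgenic replicate 3 has a weight of 7.67 and the other transgenic arrays 0.28 and 0.26. Oasl2 turned sign only there (0.086), where Ifit1 (0.12), Ifit3 (0.089), Irf7 (-0.028) and Rsad2 (-0.014) also turned. Ifit1 turned after quantile normalization (0.046), as did Usp18 (0.032), and after median centring (0.026). With sex as a covariate, as in female arrays alone, the estimate is transgenic replicate 2 against the wild type arrays, an arm of 1 array, so calls under both settings say nothing firm about the groups. Irf7 was then -0.24, Rsad2 -0.31 and Ifit3 -1.04 (adjusted p 0.0444 with the covariate and 0.0332 in female arrays). Leaving out single arrays gave -0.35 to 0.37 for Ifit1, -0.47 to 0.27 for Ifit3, -0.14 to 0.14 for Irf7, -0.38 to 0.28 for Usp18, -0.16 to 0.21 for Rsad2 and -0.35 to 0.12 for Ifitm3. The cause of these turns was not tested.

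The median difference of the members was -0.74 with sex as a covariate and in female arrays, -0.35 to 0.17 without single arrays, and -0.05 to -0.01 under quantile normalization, centring and array weights. Probe sets past the adjusted threshold numbered 2611 with array weights, 1481 with sex as a covariate, 1843 in female arrays, 335 without transgenic replicate 2 and 0 without any other array. At an unadjusted p under 0.05 there were 10793 with array weights, 8604 with sex, 10602 in female arrays and 2243 without dim probe sets, where fewer were tested, and 2031 to 5168 without single arrays. Of the other type I interferon-stimulated genes, 24 of 32 had lower means without dim probe sets, and 29 to 40 of 50 without single arrays. At an unadjusted p under 0.05 there were 4 after quantile normalization, 13 with array weights, 14 with sex, 16 in female arrays and 1 to 6 without single arrays. At the adjusted threshold, 1 passed with array weights (Trim25), 1 with sex and 1 in female arrays (both Sp100), and 0 without any single array. With the replicate number as a block, 0 probe sets passed the adjusted threshold and 2999 had an unadjusted p under 0.05; the block changed no call of a member. Averaging several probe sets per gene was not run, since each member had exactly 1.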
